A study of Homo sapiens with 20 samples.

Results

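Cholesterol and fatty acid synthesis genes were followed in 10 human leukemia lines of T-cell acute lymphoblastic type (T-ALL) after inhibition of gamma-secretase, the protease complex that releases the active part of NOTCH receptors. The members were 35 genes named by symbol, and 30 of them were measured by a probe set that the platform's annotation gives to 1 gene. They were 16 of 18 genes of the sterol branch, 5 of 6 regulators of the sterol regulatory element-binding proteins (SREBPs), 7 of 8 genes of the fatty acid branch and 2 of 3 genes of sterol efflux. The annotation pairs the probe sets of CYP51A1 and FADS1 with a second gene, and FDFT1, STARD4 and NR1H2 were not analysed here. Each gene was read from its brightest probe set over all arrays, and all 30 passed the filter on low signal that left 7695 of 11963 genes for testing.

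RNA of each line was measured on 1 array after CompE, a gamma-secretase inhibitor, and on 1 array after the vehicle DMSO, 20 arrays in all. The series' text gives 100 nM CompE and 72 h, while several CompE labels name no dose. The lines, each established from T-ALL or T-cell lymphoma, were RPMI8402, PF382, MOLT3, KOPTK1, DND41, CUTLL1, CCRF-CEM, HPB-ALL, ALL-SIL and P12-ICHIKAWA, and the series' text says that they carry activating NOTCH1 mutations, which both groups therefore share. Per the labels the lines grew in medium with fetal bovine serum, which is a source of sterols and fatty acids. For P12-ICHIKAWA, MOLT3 and CCRF-CEM the labels name 1 medium beside CompE and another beside DMSO. The name beside DMSO is that of the line RPMI8402, which may be a slip in the labels. The sources used here do not settle it.

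The sterol branch builds cholesterol from acetyl-CoA through mevalonate, isoprenoid pyrophosphates, squalene and lanosterol. The fatty acid branch turns citrate into acetyl-CoA and malonyl-CoA, joins these into palmitate, and then lengthens and desaturates the chain. Both branches are driven by SREBPs, transcription factors held in the endoplasmic reticulum by SCAP and the INSIG proteins while sterols are plentiful and released to the nucleus when sterols run low. Dividing lymphoid cells use both branches to make membranes.

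The arrays carried T-lineage RNA. All 8 T-lineage markers passed the filter, with a summed signal of 13020 to 28600 in CompE and 13080 to 25080 in DMSO. Among them CD3G was called lower (-0.54) and LCK higher (0.26) in CompE on the log2 scale. Of markers of other cell types, 0 of 4 myeloid, 0 of 2 erythroid, 0 of 3 adipocyte, 1 of 3 B-lineage (CD22), 1 of 3 epithelial (KRT8), 2 of 3 fibroblast (COL1A1 and COL1A2) and 1 of 3 hepatocyte (APOA1) genes passed it, none of these with a called change. No summed signal of these lists was above 199.2 in CompE or 214 in DMSO, and LYZ, ALAS2 and KRT19 were near 0 in both groups. Array medians ran from 54.7 to 74.8. A measure of RNA quality differed between the groups. The ACTB 3′/5′ ratio, higher where RNA is more degraded, was 2.28 ± 2.64 in CompE and 1.47 ± 0.687 in DMSO (SD, n = 10), and was higher in CompE in 9 lines (exact sign-flip p = 0.00586). KOPTK1 stood apart with a ratio of 9.76 in CompE and 3.32 in DMSO, and the part of its RNA quality in the results was not tested. Values without KOPTK1 are given for members whose sign or call turned on it and for some others. Members without such a value moved too, as MSMO1 did from -0.16 to -0.10.

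Promoters are shown because SREBPs and their partners are known to act there on many of these genes. RefSeq windows of the 250 bases before the start (GRCh38.p14) were found for 26 of the 30 measured genes. CCAAT, on either strand the box bound by NF-Y, a partner of SREBPs, lay in 12 of 14 sterol windows, against 33.0% of all 27305 windows and 36.6% of those of tested genes. GGGCGG, the letters read by SP1, lay in 13 of 14, against 42.3% of all windows and 67.8% of those of tested genes. TCACNCCAC, a strict form of the sterol regulatory element, lay in 0 of 14 sterol windows and in 1 of 5 windows of the regulators, that of SREBF2, against 0.875% of all windows. CACGTG, the E-box, lay in 1 of 14 sterol windows and in 2 of 5 windows of the regulators, those of INSIG1 and SCAP. Its share was 6.49% of all windows and 9.39% of those of tested genes. In the fatty acid branch CCAAT lay in 3 of 6 windows. Both strands were searched for each motif, matches of different motifs may share letters, and a match describes the sequence and not a bound site.

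In the windows below, printed 5′ to 3′ on the gene's own strand, capitals mark CCAAT or its reverse complement, and in SREBF2 also the sterol regulatory element. LSS, HMGCS1, FDPS and MSMO1 were taken from 4 steps of the sterol branch and SREBF2 for its element. They lie at chr21:46228775-46229024 (LSS, minus strand), chr5:43313413-43313662 (HMGCS1, minus strand), chr1:155308616-155308865 (FDPS, plus strand), chr4:165327419-165327668 (MSMO1, plus strand) and chr22:41832855-41833104 (SREBF2, plus strand), each directly upstream of the annotated start of its gene.
LSS: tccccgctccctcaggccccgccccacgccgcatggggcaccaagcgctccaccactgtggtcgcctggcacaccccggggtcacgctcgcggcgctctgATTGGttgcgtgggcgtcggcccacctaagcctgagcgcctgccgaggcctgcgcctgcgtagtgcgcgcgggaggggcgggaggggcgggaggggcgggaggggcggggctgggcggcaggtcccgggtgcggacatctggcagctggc
HMGCS1: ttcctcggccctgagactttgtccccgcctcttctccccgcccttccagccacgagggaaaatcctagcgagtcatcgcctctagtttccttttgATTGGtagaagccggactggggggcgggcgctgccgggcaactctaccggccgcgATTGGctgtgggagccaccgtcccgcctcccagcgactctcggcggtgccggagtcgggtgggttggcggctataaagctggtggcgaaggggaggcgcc
FDPS: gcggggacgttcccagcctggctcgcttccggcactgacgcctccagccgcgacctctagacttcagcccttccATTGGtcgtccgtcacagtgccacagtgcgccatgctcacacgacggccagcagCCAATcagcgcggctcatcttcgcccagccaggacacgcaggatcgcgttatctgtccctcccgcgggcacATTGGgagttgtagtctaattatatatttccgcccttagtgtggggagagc
MSMO1: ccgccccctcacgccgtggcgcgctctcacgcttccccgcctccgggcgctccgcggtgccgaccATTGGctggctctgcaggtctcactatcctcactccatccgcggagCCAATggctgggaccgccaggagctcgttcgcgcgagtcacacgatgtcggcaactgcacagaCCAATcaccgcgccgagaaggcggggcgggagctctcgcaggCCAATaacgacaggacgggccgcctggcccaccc
SREBF2: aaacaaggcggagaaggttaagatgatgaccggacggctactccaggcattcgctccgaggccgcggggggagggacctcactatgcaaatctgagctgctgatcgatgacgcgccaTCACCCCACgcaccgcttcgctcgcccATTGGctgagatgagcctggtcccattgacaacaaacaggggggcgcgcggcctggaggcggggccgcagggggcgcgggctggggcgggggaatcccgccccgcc

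No member passed the test over the 10 lines. With the change taken within each line in limma and p-values adjusted by the Benjamini-Hochberg method over all 7695 genes, 0 of 30 members passed 0.05, against 7.17% of all genes (552 genes, of which 303, 3.94%, were higher and 249, 3.24%, lower in CompE). At an unadjusted p under 0.05 there were 4 of 30 members, which is 13.3%, against 25.1% of all genes, and by the exact sign-flip test over 10 pairs there were 2, against 24.1%. LSS, IDI1 and TM7SF2 of the sterol branch were higher and ELOVL6 of the fatty acid branch was lower among the 4. The 95% intervals of all 30 changes lay between -0.82 (FADS2) and 0.64 (TM7SF2) on the log2 scale, and 19 of them lay within 0.5 of 0. Changes are differences of log2(signal + 16), which understate the fold of dim genes. In RNA from whole cultures, a change in some cells and a smaller change in every cell cannot be told apart.

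In the 10-line fit the medians of both branches lay near that of all genes. The median fitted change was 0.08 over the 16 sterol genes and -0.03 over the 7 fatty acid genes, beside 0.04 over all genes tested. Of the sterol genes 10 were above 0 and 6 below, of the fatty acid genes 3 were above and 4 below, and 59.0% of all genes were above 0. The sign of the sterol median did not hold under other settings: it was -0.05 with the mean of each gene's probe sets and -0.04 without the 3 lines of uncertain medium. The fatty acid median was -0.14 and -0.13 under these settings, beside all-gene medians of 0.02 and 0.05. It was 0.03 with a filter at the 60th percentile. No test was run on a median over members.

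**Figure D1:**
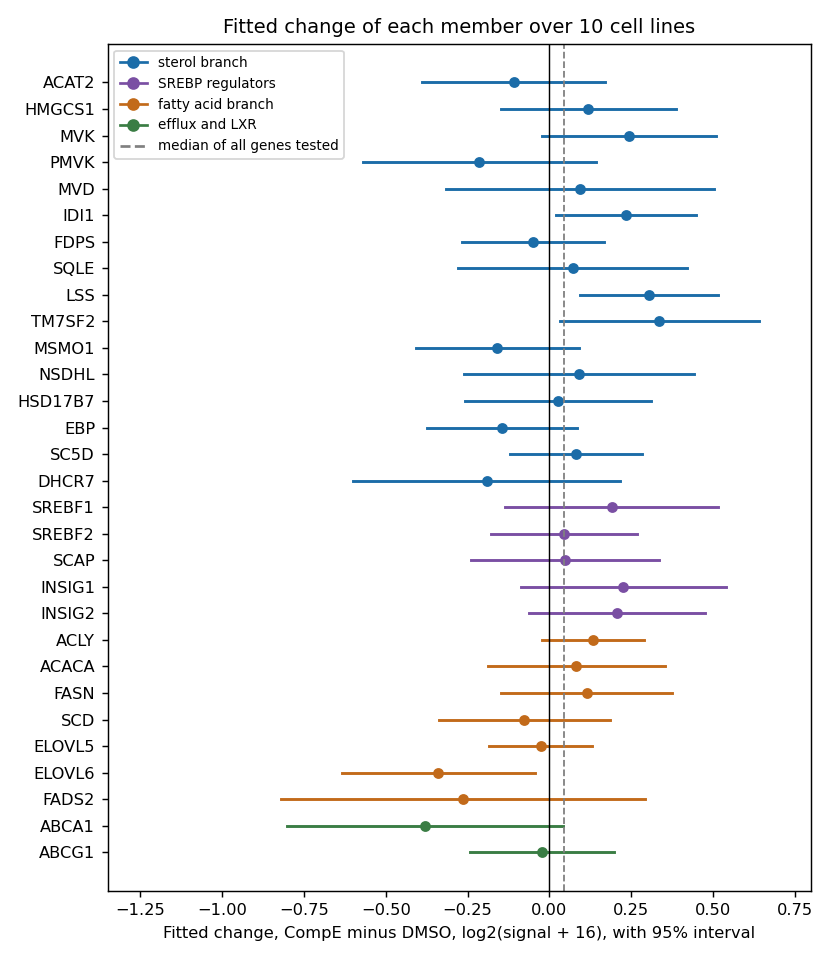
Fitted change of each of the 30 members over 10 cell lines, CompE minus DMSO on the log2(signal + 16) scale (x axis), with 95% intervals as lines and genes on the y axis in the order of the pathway. All points lie between -0.38 (ABCA1) and 0.34 (TM7SF2), and the dashed line is the median of all genes tested, 0.04.

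In the sterol branch, LSS came closest to the threshold. LSS, on chromosome 21, makes lanosterol synthase, which folds oxidosqualene into the first sterol ring system. Its signal ran from 325 in KOPTK1 over a median of 602 to 2392 in P12-ICHIKAWA in CompE, and from 246 in KOPTK1 over a median of 582 to 1293 in RPMI8402 in DMSO. The groups overlapped, and P12-ICHIKAWA and RPMI8402 were the high lines in both. Within lines LSS was higher in CompE in 8 of 10, lower in CCRF-CEM and HPB-ALL, with a change of 0.30 ± 0.0999 (SE, n = 10 pairs, limma adjusted p = 0.0734). Without CCRF-CEM it was 0.36 with an adjusted p of 0.0448, in a fit that called 6.09% of all genes. The changes of the dimmer probe sets of LSS were 0.42 ± 0.182 and 0.17 ± 0.272 (SE over 10 lines).

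IDI1 and TM7SF2 were the other sterol genes with an unadjusted p under 0.05. IDI1, the isomerase that makes dimethylallyl pyrophosphate, had signals of 741 to 1486 with a median of 1135 in CompE and of 556 to 1680 with a median of 892 in DMSO. The ranges overlapped, PF382 was lowest in both, and the highest single signal was that of HPB-ALL in DMSO. Its change was 0.23 ± 0.101 (adjusted p = 0.157, limma), higher in 7 lines, and its probe set is of a type that can bind related transcripts. TM7SF2, which makes a sterol reductase acting after lanosterol, had signals of 36.5 to 217 with a median of 121 in CompE and of 27.7 to 146 with a median of 99.8 in DMSO. It was highest in DND41 in both groups, was lower in CompE in MOLT3, P12-ICHIKAWA and PF382, and had a change of 0.34 ± 0.144 (adjusted p = 0.157, limma).

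The next sterol genes by p were MVK, MSMO1 and EBP. MVK, mevalonate kinase, had signals of 120 to 244 with a median of 161 in CompE and of 92.6 to 214 with a median of 149 in DMSO, a change of 0.24 ± 0.125 (limma adjusted p = 0.238) that was higher in 8 lines. A second probe set of MVK past the filter gave 0.16 ± 0.259 and was higher in 7 lines, and the dimmest, under the filter, gave -0.57 ± 0.124 and was lower in 9 lines (SE over 10 lines). MSMO1, the sterol methyl oxidase that acts on methylated sterols after lanosterol, had signals of 359 to 877 with a median of 756 in CompE and of 408 to 1360 with a median of 674 in DMSO. EBP, the sterol isomerase of the late pathway, had signals of 388 to 1619 with a median of 682 in CompE and of 443 to 1379 with a median of 763 in DMSO. Neither MSMO1 (-0.16 ± 0.118, adjusted p = 0.420) nor EBP (-0.15 ± 0.108, adjusted p = 0.422) passed in limma, and the groups overlapped for all 3 genes. The dimmer probe sets of EBP gave -0.03 ± 0.1375 and -0.36 ± 0.129 (SE over 10 lines), the latter higher in 1 line.

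The remaining sterol genes had changes between -0.21 and 0.12 and adjusted p-values of at least 0.45. The early steps were ACAT2 (-0.11), which joins acetyl-CoA units, HMGCS1 (0.12), the synthase that makes HMG-CoA, PMVK (-0.21) and MVD (0.09), which carry mevalonate to isopentenyl pyrophosphate, and FDPS (-0.05), which makes farnesyl pyrophosphate. SQLE (0.07) is the squalene epoxidase, and NSDHL (0.09), HSD17B7 (0.03), SC5D (0.08) and DHCR7 (-0.19) act late. Other probe sets differed in sign for HMGCS1 (-0.39 ± 0.215), NSDHL (-0.13 ± 0.104), SC5D (-0.09 ± 0.175) and SQLE (-0.21 ± 0.202 and -0.32 ± 0.315, SE over 10 lines). HSD17B7 has a near-identical pseudogene and a probe set that can bind related transcripts, so its value is uncertain. Without KOPTK1, PMVK was at -0.38 and passed (adjusted p = 0.0477, limma), in a fit that called 13.4% of all genes. In that fit NSDHL was at -0.065, HSD17B7 at -0.11, SQLE at 0.23 and SC5D at 0.15, none of which passed.

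The 5 regulators had fitted changes of 0.04 to 0.23, while median centring put SREBF2 and SCAP below 0 and covariates for signal quality put SREBF1, SREBF2 or SCAP below 0. SCAP was lower in CompE in 7 of 10 lines, and without KOPTK1 its change was -0.10. INSIG1, which retains the SCAP and SREBP complex in the endoplasmic reticulum and is itself an SREBP target, had signals of 851 to 4377 with a median of 1410 in CompE and of 688 to 3128 with a median of 1394 in DMSO. P12-ICHIKAWA was brightest and ALL-SIL dimmest in both groups. INSIG1 was higher in CompE in 8 lines, lower in HPB-ALL and KOPTK1, with a change of 0.23 ± 0.148 (adjusted p = 0.357, limma). A probe set almost as bright gave 0.35 ± 0.0955, higher in 8 lines, and the dimmest gave -0.02 ± 0.174 (SE over 10 lines). In MOLT3 the signal was 1635 in CompE and 711 in DMSO, and in KOPTK1 it was 910 in CompE and 1912 in DMSO.

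INSIG2, the related retention protein, ran from 160 over a median of 478 to 680 in CompE and from 98.8 over a median of 412 to 527 in DMSO. ALL-SIL was lowest and HPB-ALL highest in both groups, and the change was 0.21 ± 0.127 (adjusted p = 0.326, limma), higher in 8 lines. Without KOPTK1, INSIG1 was at 0.37 (adjusted p = 0.0326) and INSIG2 at 0.32 (adjusted p = 0.0328), both past the limma threshold in the fit that called 13.4% of all genes. The transcription factor gene SREBF1 had signals of 161 to 1429 with a median of 270 in CompE and of 74.7 to 963 with a median of 274 in DMSO, with RPMI8402 highest and DND41 lowest in both. Its change was 0.19 ± 0.154 (adjusted p = 0.465, limma), with 5 lines higher and 5 lower, and it was 0.09 without KOPTK1. The change of SREBF2, whose window is printed above, was 0.04 ± 0.106, and that of the escort protein gene SCAP was 0.05 ± 0.136 (limma SE).

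In the fatty acid branch ELOVL6 had the smallest p. ELOVL6, on chromosome 4, lengthens palmitate to stearate, and its signal was 52.8 to 176 with a median of 85.6 in CompE and 48.7 to 272 with a median of 123 in DMSO. The ranges overlapped. ELOVL6 was lower in CompE in 7 lines, all but MOLT3, P12-ICHIKAWA and PF382, with a change of -0.34 ± 0.139 (adjusted p = 0.139, limma). Its dimmer probe set gave -0.35 ± 0.149 (SE over 10 lines) and was lower in 8 lines. The largest difference was in HPB-ALL, with 116 in CompE and 272 in DMSO.

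ACLY, FADS2 and FASN followed. ACLY, the citrate lyase that supplies cytosolic acetyl-CoA, had signals of 1059 to 1657 with a median of 1343 in CompE and of 957 to 1493 with a median of 1206 in DMSO, with a change of 0.13 ± 0.0739 (adjusted p = 0.271, limma). Its other probe sets gave -0.23 ± 0.132 and -0.17 ± 0.129. FADS2, a desaturase of polyunsaturated chains, had signals of 92.4 to 520 with a median of 175 in CompE and of 39.4 to 1003 with a median of 345 in DMSO. Its changes in single lines ran from -1.61 in HPB-ALL to 1.81 in KOPTK1, and the fit gave -0.26 ± 0.263 (adjusted p = 0.572, limma), or -0.50 without KOPTK1 and -0.115 without HPB-ALL. FASN, the synthase that makes palmitate, had signals of 136 to 669 with a median of 213 in CompE and of 84.9 to 471 with a median of 277 in DMSO, with a change of 0.11 ± 0.124 (adjusted p = 0.608, limma), and 0.02 without KOPTK1.

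The other fatty acid genes had fitted changes close to 0. They were ACACA, the carboxylase that makes malonyl-CoA, at 0.08, SCD, the stearoyl-CoA desaturase, at -0.08, and ELOVL5, an elongase of polyunsaturated chains, at -0.03. The 3 dimmer probe sets of SCD gave -0.45 ± 0.243, -0.53 ± 0.313 and -0.62 ± 0.355 (SE over 10 lines). The dimmer probe set of ACACA gave -0.07 ± 0.103 (SE over 10 lines) and was higher in 3 lines, against 8 for the brighter. SCD was among the brightest members, at 836 to 5056 in CompE and 871 to 3750 in DMSO, and P12-ICHIKAWA held the highest signal in both groups.

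Of the efflux genes, ABCA1 was bright in DMSO in 4 lines and dim in the other 6. ABCA1, the transporter that loads cholesterol onto apolipoproteins and is a target of the oxysterol receptor LXR, had signals of 9.31 to 259 with a median of 37.5 in CompE and of 11.7 to 528 with a median of 23.8 in DMSO. Its signal was 223 in CompE and 528 in DMSO in CUTLL1, 259 in CompE and 409 in DMSO in MOLT3, 106 in CompE and 269 in DMSO in PF382, and 56.0 in CompE and 160 in DMSO in RPMI8402. In the other 6 lines it was at most 48.8 in CompE and 24.8 in DMSO, and the DMSO values lay below the low-signal filter of 32.5. ABCA1 was lower in CompE in each of the 4 lines that were bright in DMSO, with changes of -0.63 to -1.29 on the log2 scale. These lines were chosen after their signals were seen. A choice by the DMSO signal, the value subtracted, itself favours negative changes.

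Over 10 lines the change of ABCA1 was -0.38 ± 0.199 (adjusted p = 0.245, limma), and that of its second probe set was -0.65 ± 0.213 (SE over 10 lines), lower in 8 lines. ABCG1, the related transporter that passes cholesterol to lipoprotein particles, had signals of 1.08 to 976 with a median of 493 in CompE and of 3.59 to 787 with a median of 481 in DMSO. CCRF-CEM and HPB-ALL were near 0 or dim for ABCG1 in both groups. Its change was -0.02 ± 0.104 (adjusted p = 0.921, limma), and 0.05 without KOPTK1.

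**Figure D2:**
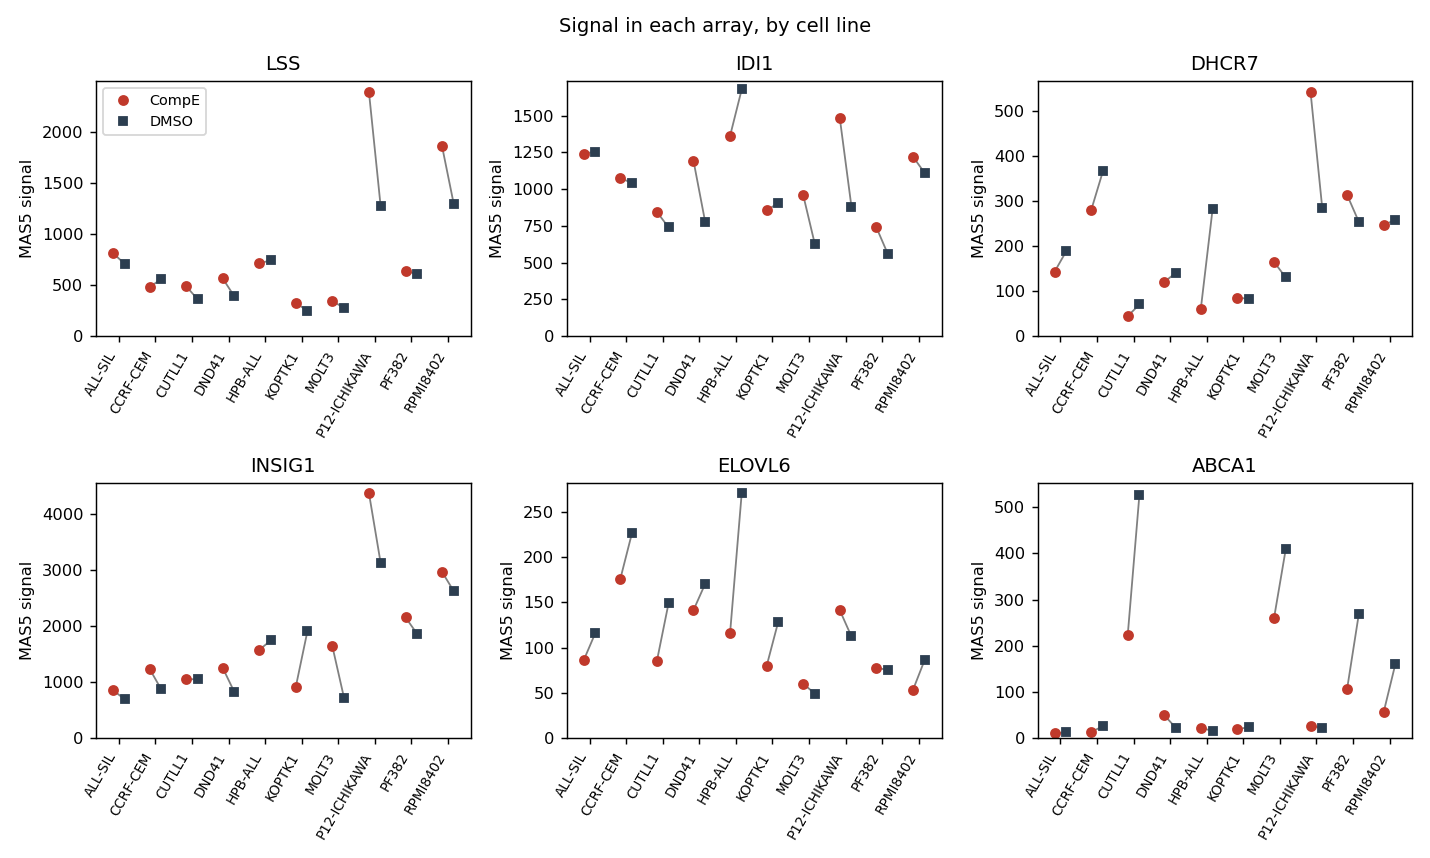
MAS5 signal (y axis, linear from 0) of 6 members in each of 10 cell lines (x axis), CompE as circles to the left and DMSO as squares to the right, 1 array each, joined within a line. LSS is brightest in P12-ICHIKAWA at 2392 in CompE, and DHCR7 is 61.1 in CompE and 281 in DMSO in HPB-ALL. ABCA1 is bright in DMSO in 4 lines, where CompE lies lower.

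The small average changes stood beside changes of opposite sign in single lines. The median over genes of the SD of the 10 changes was 0.446 for the members and 0.371 for all genes tested, and 22 of 30 members lay above the all-gene median, where by definition 50% of all genes lie. Of the 30 members, 5 had the same direction in at least 8 lines, against 32.6% of all genes. Cell line took a median of 80.3% of a member's sum of squares and 80.2% over all tested genes, and treatment took 1.33% and 2.32%. Each line is 1 pair of arrays, so changes in single lines have no test, and the lines named next were chosen after their values were seen.

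HPB-ALL and P12-ICHIKAWA lay at opposite ends. In HPB-ALL the median change of the sterol branch was -0.45, with 11 of 16 genes lower (45.8% of all genes in that line) and 8 of them below -0.5 (14.1% of all genes). In P12-ICHIKAWA the median was 0.49, with 12 of 16 genes higher (54.7% of all genes) and 8 above 0.5 (6.63% of all genes). The all-gene medians of these lines were 0.05 and 0.03. P12-ICHIKAWA is among the 3 lines of uncertain medium, so any difference in medium cannot be told apart from CompE there. CUTLL1 had a sterol median of -0.14 and DND41 of 0.19, and the remaining lines lay between -0.02 and 0.15.

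The fatty acid branch ran the same way in HPB-ALL, at -0.62 with 6 of 7 genes lower, and in P12-ICHIKAWA, at 0.20 with 6 of 7 higher. It was -0.41 in CUTLL1 and 0.24 in MOLT3, which is also a line of uncertain medium. In HPB-ALL, DHCR7, the reductase of the last step to cholesterol, had 61.1 in CompE and 281 in DMSO and HMGCS1 had 431 in CompE and 742 in DMSO. ACAT2 had 606 in CompE and 1342 in DMSO there, and FDPS had 1101 in CompE and 1770 in DMSO. In P12-ICHIKAWA DHCR7 had 541 in CompE and 284 in DMSO, HMGCS1 had 1033 in CompE and 554 in DMSO, and LSS had 2392 in CompE and 1273 in DMSO. SQLE had the opposite sign in HPB-ALL to these genes, at 2261 in CompE and 2116 in DMSO.

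**Figure D3:**
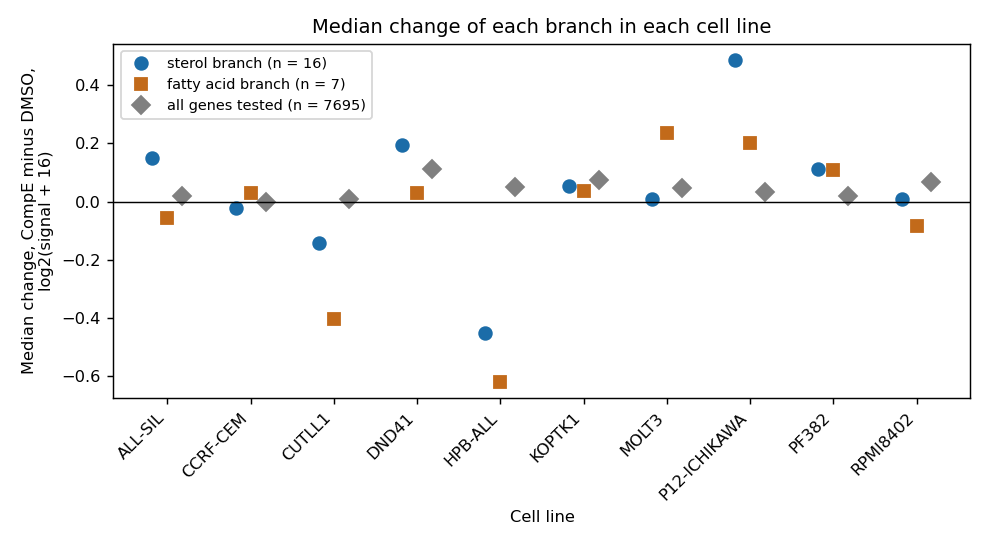
Median change per cell line (x axis) of 16 sterol genes (circles), 7 fatty acid genes (squares) and all 7695 tested genes (diamonds), CompE minus DMSO on the log2(signal + 16) scale (y axis), 1 pair of arrays a line. Both branches are lowest in HPB-ALL, at -0.45 and -0.62, and the sterol branch is highest in P12-ICHIKAWA at 0.49, while all genes stay between 0.00 and 0.11.

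HPB-ALL had high levels in DMSO. In DMSO it had the highest signal of the 10 lines for 8 of 16 sterol genes and 10 of 30 members, against 8.82% of all genes, and the lowest for none of the 30. The changes in HPB-ALL subtract this same DMSO array, so its high levels and its negative changes are not separate observations. KOPTK1 was lowest for 6 of 16 sterol genes, against 19.5% of all genes. P12-ICHIKAWA was highest for 6 of 30 members, against 7.16% of all genes, and RPMI8402 for 7, against 8.62%, though for 2 and 1 of the 16 sterol genes.

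**Figure D4:**
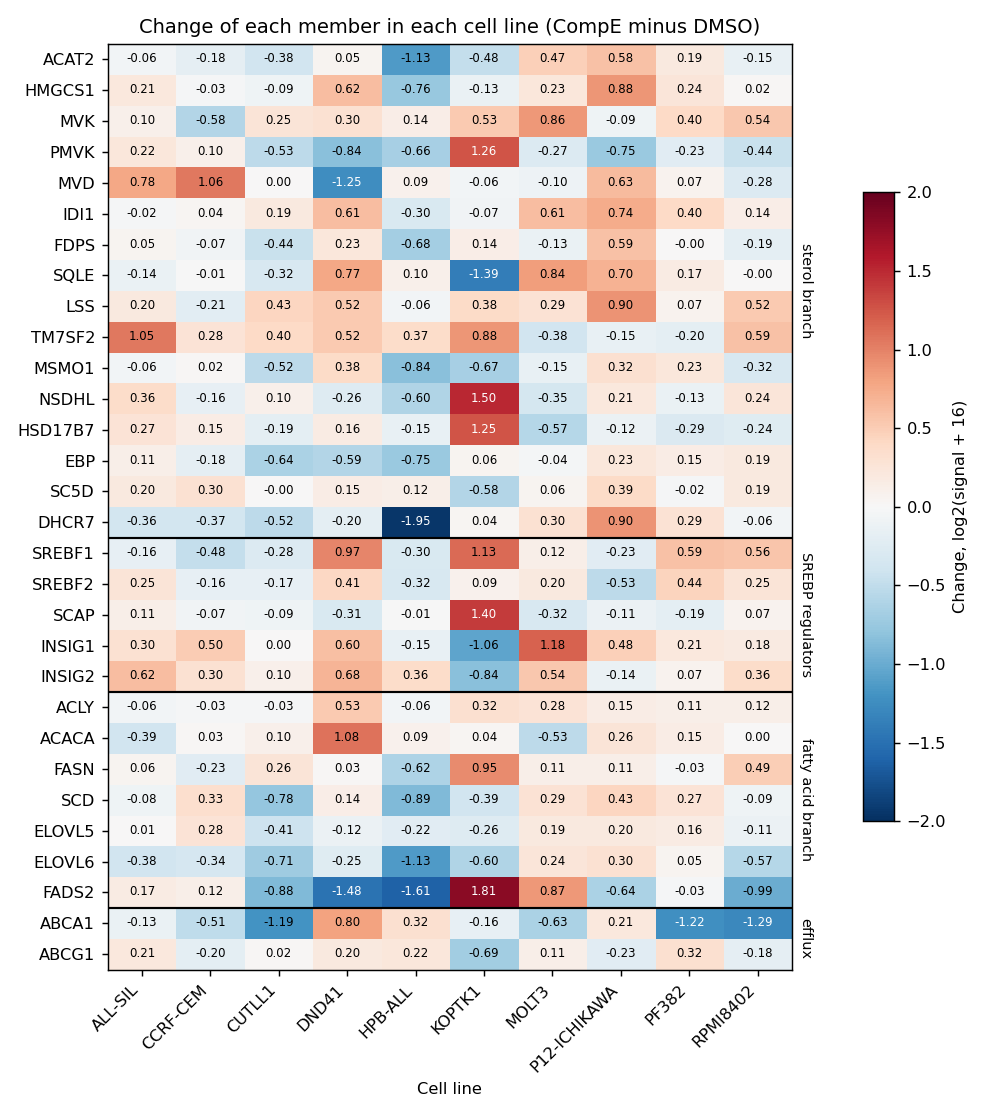
Change of each of 30 members (rows, in pathway order, with the group named at the right) in each of 10 cell lines (columns), CompE minus DMSO on the log2(signal + 16) scale, red above 0 and blue below. DHCR7 in HPB-ALL, at -1.95, is the lowest value and FADS2 in KOPTK1, at 1.81, the highest.

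The changes of some members ran in parallel over the lines and those of others ran opposite. Of all pairs of members, the highest values of Pearson's r over the 10 changes were 0.97 for ACAT2 and ELOVL6, 0.90 for SQLE and INSIG1 and 0.90 for ACAT2 and HMGCS1. The lowest were -0.89 for SQLE and SCAP, -0.86 for SCAP and INSIG1 and -0.81 for PMVK and SQLE. Without KOPTK1 the first 3 were 0.97, 0.75 and 0.90, and the last 3 were -0.75, -0.65 and -0.45. The mean r over all pairs was 0.16 within the sterol branch, 0.22 within the fatty acid branch and 0.22 between the branches, against 0.01 over all pairs of tested genes. Without HPB-ALL these means were 0.08, 0.08 and 0.12, and without KOPTK1 they were 0.23, 0.28 and 0.27. In DMSO alone, the levels had a mean r of 0.30 within the sterol branch and 0.17 within the fatty acid branch, against 0.00 over all genes. These coefficients describe 10 lines, and the points of a line share its 2 arrays.

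FDPS, DHCR7 and HMGCS1 had the highest mean r with the other sterol genes, 0.39, 0.39 and 0.38. MVK (-0.04), MVD (-0.03), SC5D (-0.01) and TM7SF2 (-0.13) had a mean r below 0. Over the 20 arrays with each line's mean removed, the genes most like LSS were TLE2 (r = 0.94), FAM149A (r = 0.88) and NINJ1 (r = 0.87). The arrays of a line then mirror each other, so this r rests on 10 changes and includes their mean shift. These genes are the highest values of a search over all tested genes. TLE2, a corepressor of the Groucho family, rose by 0.68 (adjusted p = 0.0248, limma), though it passed in 7 of 14 alternatives. Averaged over its probe sets, TLE2 had 0.35 (adjusted p = 0.0959), with the ACTB ratio as a covariate its adjusted p was 0.0851, and without CUTLL1, DND41, HPB-ALL or RPMI8402 it was up to 0.0621. FAM149A (0.38, adjusted p = 0.159) and NINJ1 (0.36, adjusted p = 0.0926) did not pass.

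Neighbouring lipid genes from 5 lists chosen by name gave 5 calls among 65 tested, against 7.17% of all genes. Of fatty acid synthesis and activation genes, 1 of 15 rose and 1 fell. FABP5, a cytosolic carrier of fatty acids, had a signal of 1186 ± 527 in CompE and 2053 ± 642 in DMSO (SD, n = 10), was lower in all 10 lines and fell by 0.85 ± 0.129 (adjusted p = 0.00448, limma). Its transcript has processed pseudogenes that the probe set may also bind. ELOVL4, an elongase of very long chains, was at 1096 ± 1024 in CompE and 741 ± 692 in DMSO and rose by 0.46 ± 0.123 (adjusted p = 0.0366), higher in 9 lines. ACACB, the mitochondrial acetyl-CoA carboxylase, did not pass at 0.43 ± 0.139 (adjusted p = 0.0667, limma).

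In the list of other sterol and isoprenoid enzymes, 1 of 13 genes fell and 0 rose. The call was ACAT1 and not an enzyme of sterol or isoprenoid synthesis. ACAT1, the mitochondrial acetyl-CoA acetyltransferase of ketone and isoleucine metabolism, was at 342 ± 187 in CompE and 489 ± 251 in DMSO, lower in all 10 lines, and fell by 0.52 ± 0.0956 (adjusted p = 0.00975, limma). LBR (0.17, adjusted p = 0.135) and PDSS1 (-0.27, adjusted p = 0.254) did not pass. Of sterol transport and LXR genes, 1 of 14 fell and 0 rose. TMEM97, a regulator of the cholesterol carrier NPC proteins, was at 670 ± 346 in CompE and 974 ± 422 in DMSO, lower in 9 lines, and fell by 0.54 ± 0.133 (adjusted p = 0.0249, limma). Averaged over its probe sets, TMEM97 was at -0.33 and did not pass (adjusted p = 0.0965, limma). LRP8, a lipoprotein receptor, had -0.38 (adjusted p = 0.0579) and SOAT1, which esterifies cholesterol, had -0.41 (adjusted p = 0.115).

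Of fatty acid oxidation genes, 1 of 16 rose and 0 fell. SLC25A20, the carrier that brings acylcarnitines into mitochondria, was at 393 ± 121 in CompE and 304 ± 109 in DMSO, higher in all 10 lines, and rose by 0.38 ± 0.0873 (adjusted p = 0.0202, limma). ACADVL (0.26, adjusted p = 0.128) and HADH (-0.21, adjusted p = 0.247), enzymes of beta-oxidation, did not pass. Of SREBP processing genes 0 of 7 passed, the nearest being RNF139 (0.24, adjusted p = 0.108), HSP90B1 (-0.37, adjusted p = 0.122) and the protease gene MBTPS1 (0.12, adjusted p = 0.361). With the ACTB ratio as a covariate FABP5, ACAT1, TMEM97 and SLC25A20 had adjusted p-values of 0.0228, 0.0416, 0.0313 and 0.0416, and ELOVL4 had 0.112. Of 15 alternatives that keep or replace the settings, FABP5 and ACAT1 passed in 12 each, SLC25A20 in 11, TMEM97 in 10 and ELOVL4 in 5. With median centring SLC25A20 (adjusted p = 0.0775) and ELOVL4 (0.0631) did not pass. FABP5 and ACAT1 passed without each line in turn, with adjusted p-values of at most 0.0150 and 0.0311. TMEM97 missed the threshold without CUTLL1, DND41, HPB-ALL or RPMI8402 (adjusted p up to 0.0589) and SLC25A20 without HPB-ALL or RPMI8402 (up to 0.0589). ELOVL4 missed it without CCRF-CEM, CUTLL1, DND41, HPB-ALL, MOLT3, PF382 or RPMI8402 (up to 0.0967).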

How the data were processed

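The authors deposited MAS5 signal intensities on a linear scale for 20 arrays, per the submitters' processing notes, which name no version or settings. Every array has a trimmed mean of 249.9 to 250.1 (2% taken off each end), so the authors scaled all arrays to a common mean, which cannot show a change in total RNA per cell. MAS5 values are noisy near 0.

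Of 22277 probe sets, 62 controls were left out. The platform annotation names 1 gene for 19070 probe sets, several for 1043 and does not list 2164. A gene was read from the probe set with 1 gene and the highest mean. A filter at the 40th percentile of mean log2 signal (32.5) left 7695 of 11963. Values were analysed as log2(signal + 16) with limma 3.58.1 under R 4.3.3, in a model with a fixed term for each line, eBayes with a trend and Benjamini-Hochberg adjustment at 0.05, two-sided. The pairing comes from the line named in the labels. The lines are the replicates, and the number of arrays limits precision. Whether the CompE and DMSO arrays of a line are separate cultures is not stated, and the spread behind each p-value is that between lines. The exact sign-flip test used 1024 patterns, with a smallest p of 0.00195. The code was tested on simulated data.

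The members and all gene lists were chosen with earlier results of these data known. Full values go to members with an unadjusted p under 0.05 and up to 3 further members per branch by p, and from each neighbouring list to up to 3 genes by adjusted p; other members are given by range, and those named for single lines were chosen after their values were seen. Alternatives changed the pseudocount, the filter, the probe set rule, the scaling, the block, a quality covariate, the eBayes settings, the test and the lines. Promoter windows are RefSeq's (GRCh38.p14). Some genes of the pathway are not reported here.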

Additional observations from a re-analysis of the deposited data

Results flagged for a closer look

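Among 90 checks of 10 values each (the level in CompE, the level in DMSO and the change, for 30 members), 11 found a lowest or highest line whose gap to the nearest of the others was above Dixon's critical value at the 95% level. Chance gives about 1 in 20 where checks are independent. These are not, as each change is the difference of the levels also checked and the genes share arrays. KOPTK1 accounted for 7 of the 11, and it is the line with an ACTB ratio of 9.76 in CompE and 3.32 in DMSO. In KOPTK1 the changes of NSDHL (1.50), SCAP (1.40), PMVK (1.26) and HSD17B7 (1.25) stood above, and those of SQLE (-1.39) and SC5D (-0.58) below, the other 9 lines. The NSDHL level of KOPTK1 in DMSO was also apart, at 5.47 on the log2(signal + 16) scale, where the other lines began at 6.51. The NSDHL change in KOPTK1 subtracts this same value. The part of RNA quality in these values was not tested.

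In HPB-ALL the change of DHCR7 was -1.95, where the next lowest line had -0.52, and the FDPS level in DMSO was 10.80 on the log2(signal + 16) scale, where the other lines reached 10.13. In P12-ICHIKAWA the HMGCS1 level in CompE was 10.04, where the other lines reached 8.99. In DND41 the change of ACACA was 1.08, where the other lines reached 0.26.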

How the results depend on the processing

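No member passed the threshold in the 10-line fit or in any of 15 alternatives that keep or replace its settings, while leaving out 1 line gave 0 to 3 members (LSS without CCRF-CEM, and PMVK, INSIG1 and INSIG2 without KOPTK1). All-gene calls, 552 in the 10-line fit, ran from 181 without HPB-ALL to 1031 without KOPTK1. They were 0 with no replicate block (369 genes at an unadjusted p under 0.05), 0 with the 10th percentile of signal as a covariate (1045 genes), 0 by the exact sign-flip test (1851 genes), 318 with a covariate for the ACTB ratio and 298 without the 3 lines of uncertain medium. Median centring gave 116 higher and 340 lower in place of 303 and 249, and moved the all-gene median from 0.04 to -0.03. The median change stayed between -0.05 and 0.08 over the sterol branch and between -0.14 and 0.03 over the fatty acid branch in the alternatives that keep all 10 lines; without the 3 lines it was -0.04 and -0.13. A filter at the 60th percentile left out MVD, TM7SF2, NSDHL, ELOVL6 and ABCA1, and a pseudocount of 64 left out MVD.

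Signs turned for members with changes of up to 0.24 in size, and the cause was not tested. With the mean of a gene's probe sets HMGCS1 was at -0.14, MVK at -0.055, SQLE at -0.15, NSDHL at -0.021, SC5D at -0.0053, ACLY at -0.091 and ABCG1 at 0.026. With median centring SQLE was at -0.0011, HSD17B7 at -0.045, SREBF2 at -0.027 and SCAP at -0.024, and with quantile normalization MVD was at -0.0145. With the ACTB ratio as a covariate NSDHL was at -0.19, HSD17B7 at -0.25, SREBF1 at -0.038, SCAP at -0.23, FASN at -0.0497, ELOVL5 at 0.026 and ABCG1 at 0.13. With the 10th percentile as a covariate SQLE was at -0.19, SREBF1 at -0.0083, SREBF2 at -0.0505 and ACACA at -0.055. Without the 3 lines MVD was at -0.093, SQLE at -0.12 and ABCG1 at 0.013. The sign turned without KOPTK1 for NSDHL, HSD17B7, SCAP and ABCG1, and without HPB-ALL for ACAT2, FDPS, DHCR7 and SCD. Leaving out 1 line gave -0.19 to 0.0036 for ACAT2, -0.0146 to 0.24 for MVD, -0.12 to 0.020 for FDPS, -0.0152 to 0.23 for SQLE, -0.065 to 0.17 for NSDHL, -0.11 to 0.093 for HSD17B7, -0.31 to 0.0031 for DHCR7, -0.10 to 0.088 for SCAP, -0.029 to 0.15 for ACACA, -0.13 to 0.0134 for SCD, -0.060 to 0.0153 for ELOVL5 and -0.061 to 0.052 for ABCG1.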

Other observations

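The MCM2 to MCM7 genes, which encode the helicase that opens DNA for replication, were read beside the lipid genes as a list added after values were seen. Their median change under CompE was -1.16 in HPB-ALL and -0.996 in CUTLL1, with 6 of 6 genes below -0.5 in each, against 14.1% of all genes in HPB-ALL and 9.79% in CUTLL1. These were also the lines with the lowest medians of both lipid branches. In P12-ICHIKAWA, where the sterol branch was highest, the MCM median was -0.34, and in DND41 it was -0.43. The remaining lines lay between -0.22 and 0.03. Each value is 1 pair of arrays, and no relation between the lists was tested.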
